A study of Mus musculus with 9 samples.

Results

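The comparison described here set 1 RNA-seq library from the intestinal tract of mice given dextran sulfate sodium (DSS) and collected at day 28 of rearing, called R by the submitters, against the series' only library from mice not given DSS, called C. These are 2 of the 9 libraries of the series. Genes with at least 1 FPKM (fragments per kilobase of transcript, relative to the mapped fragments of each library) in either library were kept, which left 18222 of the 55468 genes in the deposited table. Each gene was compared as the difference of log2(FPKM + 0.5), R minus C, so a difference of 1 is close to 2-fold for well-expressed genes and understates the change of low ones. With 1 library on each side there is no spread between replicates and no test, and each value below describes these libraries.

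The series studied diets deficient in methionine, in tryptophan plus niacin, or in all of these, in DSS-treated mice. R came from mice on normal feed that drank DSS freely from day 18, which is 10 days before collection. C came from mice on normal feed, collected at day 34, 6 days later than R, so collection day differs along with DSS and their effects cannot be told apart. Strain, sex, age at the start, DSS concentration, the gut segment taken, the hour of collection and the number of animals behind each library are not stated in the labels used. The other 7 libraries all came from DSS-treated mice: 3 on deficient diets collected at day 28 (1K, 2K and 3K), 1 on normal feed collected at day 33 (RR), and 3 returned from the deficient diets to normal feed and collected at day 33 (1KR, 2KR and 3KR). For the genes that matter most, their lowest, median and highest values are given beside R and C.

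DSS is a sulfated polysaccharide that damages the intestinal epithelium when given in drinking water and lets luminal bacteria reach the underlying tissue. Neutrophils and monocytes then enter the tissue, monocytes mature into macrophages, and epithelial cells make antimicrobial proteins and oxidants. The gut also has a circadian clock: the transcription factors BMAL1 (gene Arntl) and CLOCK drive Per, Cry, Nr1d and Dbp genes through E-boxes, and the products of these genes feed back on the clock, so their transcripts rise and fall over each day.

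R and C were of similar depth. The steps between small FPKM values put them at about 29.1 M and 26.8 M fragments, so that 1 FPKM for a transcript of 2 kb stands for about 58.2 and 53.6 fragments. The summed FPKM were 598421 and 597541, of which small RNAs made up 22.4% in R and 25.9% in C, and mitochondrial transcripts 3.36% and 3.02%. Epithelial genes were abundant on both sides: Epcam, an epithelial adhesion molecule, was at 570.4 FPKM in R and 728 in C, Vil1, the microvillus protein villin, at 671 and 492, and Cdh17, intestinal cadherin, at 365 and 259. Fabp6, the ileal bile acid binding protein, was at 1946 and 3486 FPKM, against 0.282 to 658 in the other 7 libraries (median 88.6). Car1, a carbonic anhydrase of the colon, was at 0.679 FPKM in R and listed at 0 in C, and the water channel Aqp8 was at 0.049 and 0.468, while Hoxb13 was listed at 0 in both. Other genes on the list of colonic markers were expressed: of its 25 members, 10 reached 1 FPKM in R and 12 in C, and 13 did so in neither. Among those expressed, Car4 was at 96.1 in R and 32.0 in C and B4galnt2 at 189 and 148. R and C therefore both carried the ileal marker at a level that none of the other 7 libraries reached.

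Of the 18222 genes, 808 (4.43%) were higher in R by 2-fold or more and 586 (3.22%) were lower by as much. The median difference was 0.01 and 82.5% of the genes lay within 1.5-fold. At 4-fold the counts were 297 and 227, at 8-fold 169 and 141, and at 16-fold 81 and 71. Many of these genes had no signal on one side: 224 of the 808 were listed at 0 in C and 238 of the 586 were listed at 0 in R. A gene under 1 FPKM on one side was kept only through the side where it is high, so the floor fixed the direction of 438 of the 808 and 392 of the 586. Near the limit, 144 genes were between 2 and 2.2-fold higher and 225 between 1.8 and 2-fold higher, against 106 and 194 on the lower side. Near the floor of 1 FPKM, 429 genes had their higher value between 1 and 1.1 FPKM and 449 that were left out had it between 0.9 and 1.

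Most of the genes counted were not protein-coding: 953 of 1394, or 68.4%. Protein-coding genes made up 13261 of the genes kept, with 248 (1.87%) past 2-fold higher and 193 (1.46%) past 2-fold lower. Only 3 of these 248 were listed at 0 in C and 15 of the 193 in R. Immunoglobulin variable genes contributed 106 higher and 4 lower of 160. Small RNAs of all kinds contributed 175 higher and 197 lower of 663, and 124 of the former and 147 of the latter were listed at 0 on the other side. Processed pseudogenes, which share sequence with their parent genes, contributed 138 and 100 of 1477. Protein-coding genes 2-fold apart were thus a small share of those kept.

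**Figure D1:**
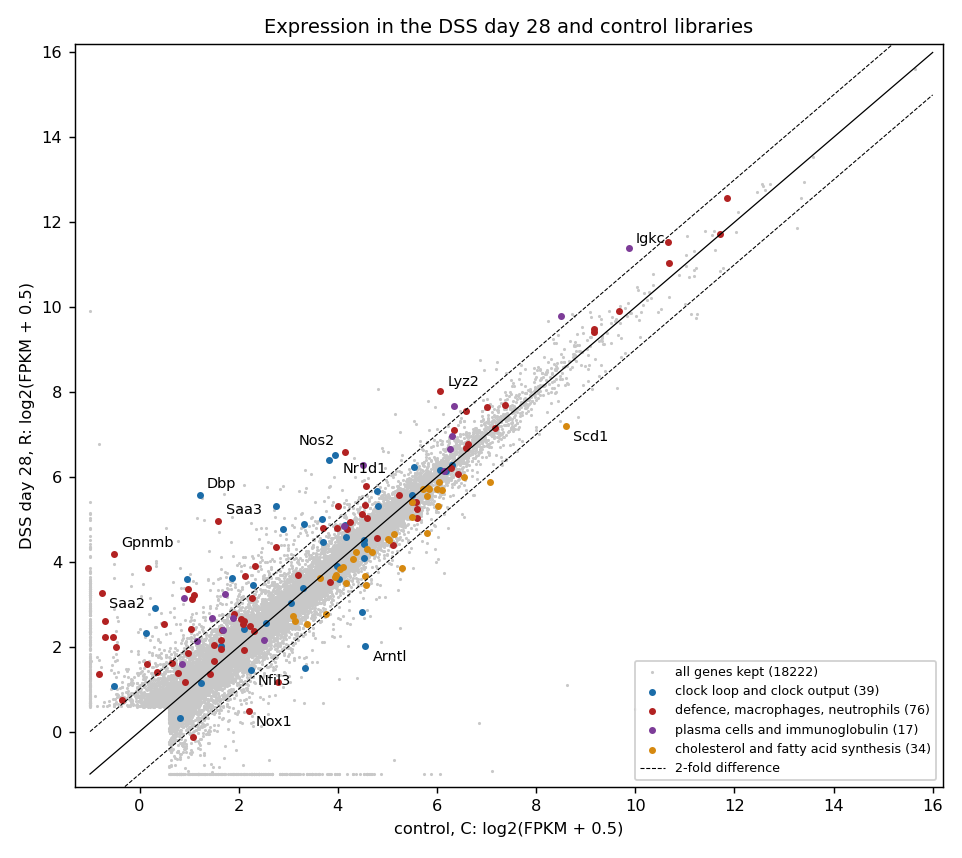
Each point is 1 of the 18222 genes kept, with log2(FPKM + 0.5) in C on the x axis and in R on the y axis; colours mark gene lists, with the number of kept members in brackets, the solid line is equality and dashed lines are 2-fold. Dbp, Gpnmb and Saa2 lie far above the upper dashed line, Arntl lies far below the lower one, and all 34 lipid synthesis genes lie below equality.

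The protein-coding genes with the largest positive differences, among those with at least 5 FPKM in either library, fell into 3 kinds. Genes of inflammation and defence were Gpnmb and Mmp12 from macrophage genes, S100a8 from neutrophil genes, and Saa2, Saa3, Nos2 and Lcn2 from epithelial oxidant and antimicrobial defence. Clock genes were Dbp, Per3, Hlf, Tef, Nr1d1 and Nr1d2. The other two were Pfkfb3, which makes the activator of the glycolytic enzyme phosphofructokinase, and Fkbp5, a co-chaperone of the glucocorticoid receptor. The 15 with the largest negative differences ran from Apoa2 (-3.13) and Pnpla3 (-2.65) over Arntl (-2.54) to Npas2 (-1.67), and held 3 clock genes (Arntl, Nfil3 and Npas2).

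To describe groups of genes, 66 lists of pathways, cell types and neighbouring organs were used. Against the 4.43% of all genes kept that were at least 2-fold higher, the share was 41.2% for plasma cell and immunoglobulin constant genes (7 of 17), 36.8% for the clock loop (7 of 19), 35.0% for damage-associated macrophage genes (7 of 20) and 33.3% for glucocorticoid-responsive genes (8 of 24). Against 3.22% lower, the share was 31.2% for liver genes (5 of 16), 18.8% for adipocyte genes (3 of 16) and 17.6% for cholesterol and fatty acid synthesis (6 of 34). Colonic markers ranked between liver and adipocyte genes, with 3 of 12 past 2-fold lower and 1 past 2-fold higher. Of these 3, 2 were under 1 FPKM in R and were kept only through C, so the floor fixed their direction. Such shares include genes that passed the floor through R alone, which were 5 of the 7 damage-associated macrophage genes, 2 of the 7 clock loop genes, 1 of the 8 glucocorticoid-responsive genes and 0 of the 7 plasma cell and immunoglobulin genes, and the shares are read as descriptions only. Lists share members, for example Per1 and Lcn2, which also stand on the glucocorticoid-responsive list.

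**Figure D2:**
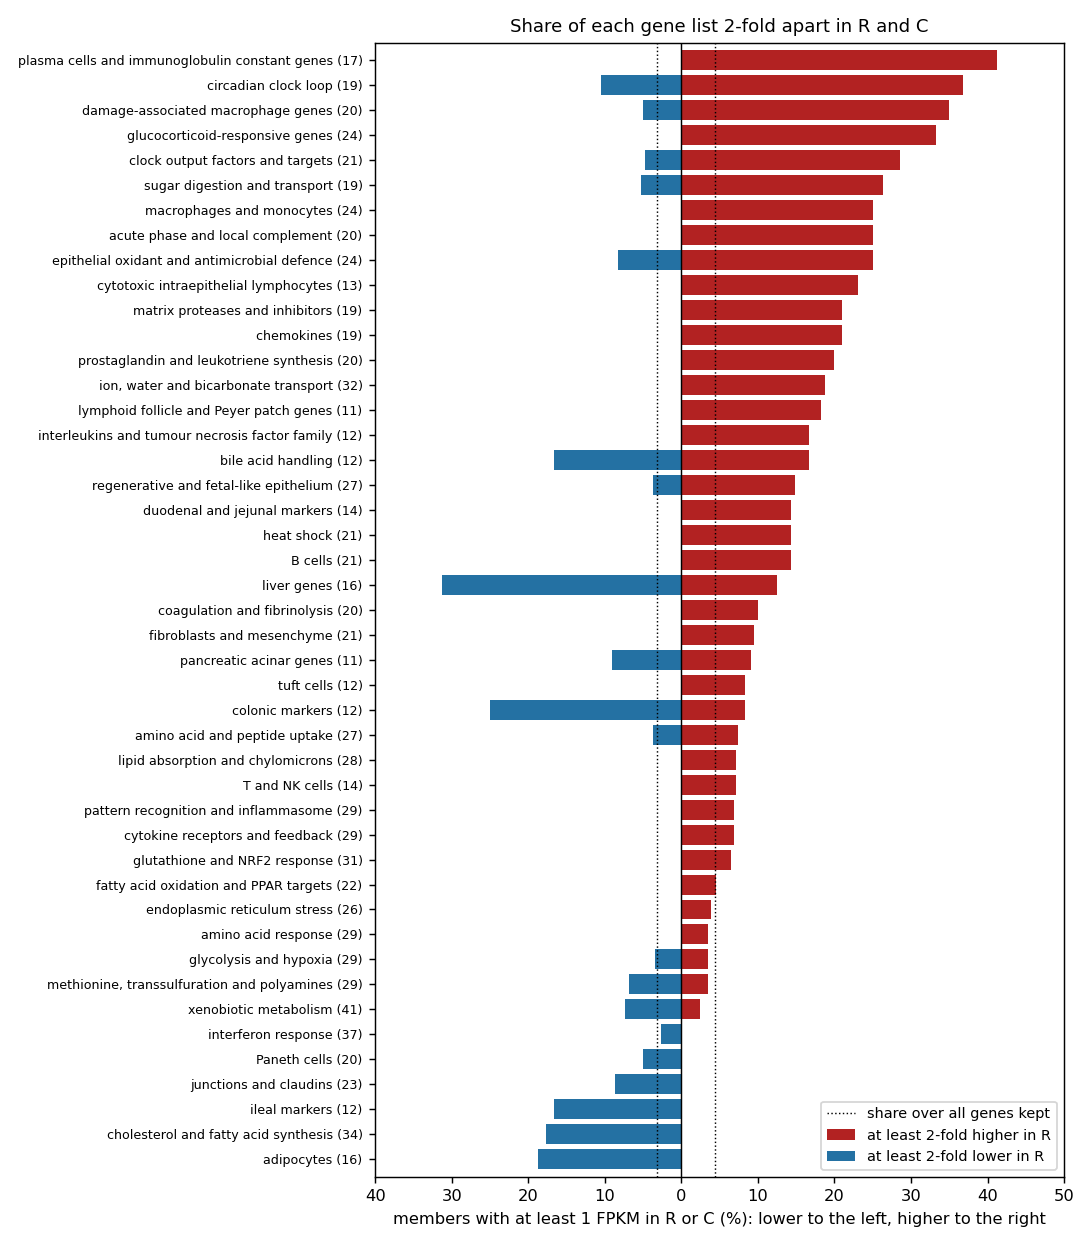
Bars give, for each list with 10 or more kept members and at least 1 of them 2-fold apart, the percentage of kept members at least 2-fold higher in R (right) or lower (left), with the number kept in brackets. Dotted lines mark 4.43% and 3.22%, the shares over all genes kept. Over protein-coding genes alone the shares were 1.87% and 1.46%. Plasma cell, clock loop and damage-associated macrophage genes reach furthest right and liver genes furthest left.

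Among genes of epithelial oxidant and antimicrobial defence, 6 of 24 kept members were past 2-fold higher in R and 2 past 2-fold lower, and the median difference was 0.32. Nos2, the inducible nitric oxide synthase (GRCm38 chromosome 11, 78920787 to 78960254, plus strand), stood at 95.2 FPKM in R, 17.2 in C and between 0.957 and 27.5 in the other 7 libraries (median 1.72), a difference of 2.43. R was the highest of the 9 libraries for Nos2, and C was above most of the other DSS libraries. Saa3, a serum amyloid A protein made locally in inflamed tissue (chromosome 7, 46711998 to 46715700, minus strand), stood at 30.6 in R, 2.51 in C and 2.07 to 739 in the other 7 (median 16.8), a difference of 3.37. Its neighbour Saa2 was at 9.05 in R and 0.092 in C, the latter about 6.02 fragments, and at 0.088 to 4361 elsewhere. Saa1, nearly identical in sequence to Saa2, was at 23.2 and 27.1, and reads of this pair may be split uncertainly. Lcn2, lipocalin 2, which withholds iron from bacteria, was at 9.72 in R and 1.47 in C, with 1.69 to 3026 in the other 7 (median 10.9), a difference of 2.37. For Saa2, Saa3 and Lcn2, R was above C but far below the highest DSS library. That library was 2K for each, which also held liver transcripts (Alb at 15459 FPKM). The next highest was 3K, at 24.1 for Saa2, 339 for Saa3 and 643 for Lcn2.

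Slpi, an inhibitor of neutrophil elastase, was at 14.6 FPKM against 4.52 and Sprr2a3, a small proline-rich protein of the epithelium, at 39.2 against 15.6. The C-type lectins Reg3g and Reg3b, which kill or bind bacteria at the mucosa, were already abundant in C, at 1626 and 3696 FPKM, and were at 2969.9 and 6069.8 in R, differences of 0.87 and 0.72 that stayed under 2-fold. The same held for Duox2, a hydrogen peroxide-producing oxidase, at 30.3 against 18.6. Nox1, a superoxide-producing oxidase, went the other way, at 0.897 in R and 4.09 in C (-1.72), as did Defb37, a beta-defensin, at 0.419 and 1.60. Nox1 and Defb37 were under 1 FPKM in R and were kept only through C, so the floor fixed their direction. Saa2, by the same rule, was kept only through R. The remaining kept members, among them Pigr, Dmbt1, Itln1, Lypd8, Zg16 and Ang4, were within 2-fold, with Zg16 at 3402 and 3331 FPKM.

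Acute phase and complement genes were higher in R in 18 of 20 kept members, 5 of them past 2-fold, and 0 were lower past 2-fold. The median was 0.69. C3, the central complement component (chromosome 17, 57203970 to 57228136, minus strand), stood at 222 FPKM in R and 55.6 in C, with 28.3 to 1892 in the other 7 (median 99.0), a difference of 1.99. The highest value was that of 2K, the library with liver transcripts, and the next was 224 in 3K. C4b, a component of the classical pathway, was at 32.4 against 8.35, and Hp, haptoglobin, which binds free haemoglobin, at 27.5 against 5.34. Clu, clusterin, which restrains complement, was at 55.2 against 27.0. It thus lay on the same side as the complement components C3 and C4b.

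Few cytokine genes were expressed at a level that allows a comparison. Of 31 interleukins and tumour necrosis factor family members, 19 had under 1 FPKM in both libraries, and of the 12 kept, 2 passed 2-fold, both higher in R. These were Il33, an alarmin released by damaged cells, at 8.70 FPKM in R, 2.45 in C and 8.46 to 21.4 in the other 7, and Il18, an epithelial cytokine activated by inflammasomes, at 19.6, 7.499 and 18.8 to 125. For both, C was the lowest of the 9 libraries. The classical acute cytokine Il1b was at 0.970 in R and 1.31 in C, and Il6 was at 0.070 and listed at 0. The neutrophil attractant Cxcl1 was at 0.402 and 0.138, and the related Cxcl2 at 0.809 and listed at 0. Ptgs2, the inducible cyclooxygenase, was at 1.02 and 1.31. Il1b, Il6, Cxcl1, Cxcl2 and Ptgs2 were chosen after their values were seen. The feedback inhibitors Socs3 and Tnfaip3, which damp cytokine receptor and NF-kB signalling, were at 22.7 against 4.79 and 28.7 against 7.89, and were the only 2 of 29 receptor and feedback genes past 2-fold, although 23 of the 29 were above 0.

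Of 19 kept chemokines, 4 passed 2-fold, each higher in R, with 2 left at a pseudocount of 1. Ccl8, Ccl22 and Ccl3 were under 1 FPKM in C and were kept only through R, so the floor fixed their direction. Ccl8, a monocyte and eosinophil attractant, was at 4.71 FPKM in R and 0.223 in C, about 70.0 and 3.05 fragments, with 0.531 to 7.86 elsewhere. Ccl22 was at 2.12 against 0.479, Ccl3 at 1.07 against 0.244 and Ccl5, an attractant of T lymphocytes, at 14.4 against 6.88. Ccl25, which draws lymphocytes to the small intestine, was at 155 and 196.

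Genes of macrophages were higher in R. Of 24 kept members of the macrophage and monocyte list, 22 were above 0, 6 were past 2-fold higher and 0 were past 2-fold lower, and the median was 0.68. Of the 6, 2 (Fcgr1 and Cd163) were under 1 FPKM in C and were kept only through R, so the floor fixed their direction. In bulk tissue, more cells of a type and more RNA per cell cannot be told apart. Lyz2, lysozyme of myeloid cells (chromosome 10, 117277331 to 117282321, minus strand), stood at 259.9 FPKM in R, 66.5 in C and 31.4 to 159 in the other 7 (median 118), a difference of 1.96. Cd68, a lysosomal protein of macrophages, was at 19.8, 6.23 and 4.78 to 15.8 (median 13.9), a difference of 1.60. R was the highest of the 9 libraries for both genes. The Fc gamma receptors Fcgr3 and Fcgr1, which bind antibody-coated particles, were at 12.1 against 3.87 and 2.53 against 0.609, while Mrc1, the mannose receptor of resident macrophages, was at 6.35 against 3.24, under 2-fold.

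Among genes that macrophages express in damaged or lipid-laden tissue, 7 of 20 kept were past 2-fold higher and 1 past 2-fold lower. Of these 7, 5 (Gpnmb, Mmp12, Trem2, Atp6v0d2 and Hmox1) were under 1 FPKM in C and were kept only through R, so their direction was fixed by the floor and the count describes these genes, not the list. Gpnmb, a membrane glycoprotein (chromosome 6, 49036546 to 49070929, plus strand), stood at 17.7 FPKM in R and 0.198 in C, the latter about 19.6 fragments, with 0.426 to 16.4 elsewhere (median 6.20). Its difference of 4.70 was the largest among the protein-coding genes named. Mmp12, macrophage elastase, was at 14.03, 0.624 and 0.338 to 11.1 (median 2.59), a difference of 3.69. Trem2, a lipid-sensing receptor, was at 4.21, 0.194 and 0.139 to 3.31, and Atp6v0d2, a proton pump subunit, at 4.19, 0.118 and 0.070 to 4.77. R was the highest library for Gpnmb, Mmp12 and Trem2. Spp1, osteopontin, was at 8.74 against 1.64, Hmox1, haem oxygenase 1, at 5.30 against 0.906, and the cathepsin Ctsl at 54.6 against 23.2. Retnla, a marker of alternatively activated macrophages, was at 1.76 in R and 6.44 in C, with 0.086 to 1.54 in the other 7, so that C was the highest library for it.

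Neutrophil genes were low in both libraries: 8 of 23 list members passed the floor, and 6 of these 8 were past 2-fold higher in R. Members at or under the floor in C could pass only through R, so the count describes these 8 genes and not the list. S100a8 and S100a9, the subunits of calprotectin, were at 5.57 and 3.47 FPKM in R and 0.121 and 0.220 in C, the latter about 1.61 and 3.06 fragments. In the other 7 libraries S100a8 ran from 1.54 to 1273 (median 2.88), and R lay above 4 of them and below 3. Ngp, a granule protein, was at 2.05 and 0.068, and Retnlg, a resistin-like protein of neutrophils, at 8.25 and 1.59. The neutrophil surface marker Ly6g was listed at 0 in R and at 0.047 in C, and the granule enzyme Mpo was at 0.079 and 0.101 (both chosen after their values were seen).

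Interferon-stimulated genes did not lie on one side, with 19 of 37 above 0 and 18 below. The median was 0.03, and -0.20 with a floor of 5 FPKM. The 1 gene past 2-fold was Isg15, a ubiquitin-like protein, at 3.41 FPKM in R and 7.5 in C. All 12 MHC class II presentation genes were above 0, none (0) by 2-fold, with a median of 0.21 and Cd74, the invariant chain, at 315 against 252. Lymphocyte genes were higher by small amounts, with 11 of 14 kept T and NK cell genes above 0 and 1 past 2-fold, Cd3d, a T cell receptor subunit, at 2.49 against 0.780. Of these 14, 10 reached 1 FPKM in C. Cd3d did not and was kept only through R, so the floor fixed its direction. In the list of cytotoxic intraepithelial lymphocytes, 3 of 13 were past 2-fold, and 0 at a pseudocount of 1: Cd7 at 6.99 against 3.09, the granzyme Gzma at 12.6 against 5.92, and Ccl5.

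Antibody genes were higher in R throughout the constant regions of the main isotypes. Ighm, the IgM heavy chain (chromosome 12, 113418558 to 113422730, minus strand), stood at 178 FPKM in R, 35.0 in C and 19.5 to 241 in the other 7 (median 110.4), a difference of 2.33. Igha, the IgA heavy chain of mucosal plasma cells, was at 882 in R, 363 in C and 118 to 1810.01 elsewhere (median 399.8), a difference of 1.28. Igkc, the kappa light chain, was at 2669.9, 935 and 447 to 5053 (median 2361), a difference of 1.51. In these 3 genes R was above C and within the span of the other DSS libraries. Ighg2b was at 8.32 against 1.37, Ighg3 at 8.97 against 2.79 and Jchain, which joins IgA and IgM into polymers, at 202 against 80.2. Of the plasma cell and constant gene list, 7 of 17 were past 2-fold higher and 0 past 2-fold lower (median 0.81). Among B cell genes 3 of 21 were: Ighm, Cr2, the complement receptor of follicular cells (20.7 against 6.74), and Pou2af1, a B cell coactivator (6.73 against 3.03).

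The variable segments followed. Summed FPKM of heavy chain V segments were 1283 in R and 523 in C, of kappa V segments 1731 and 596, and of lambda V segments 195 and 73.8. At least 2-fold higher were 45 of 76 heavy and 58 of 80 kappa segments kept, and 1 and 3 were lower. Of those kept, 55 of the 76 heavy and 61 of the 80 kappa segments reached 1 FPKM in C. The rest were kept only through R, so the floor fixed their direction and the counts describe these segments only. More segments reached 1 FPKM in R than in C, 73 against 55 of 113 heavy and 79 against 61 of 100 kappa segments. The most abundant heavy segment held 8.90% of the heavy sum in R (Ighv3-5) and 12.2% in C (Ighv6-6), and the most abundant kappa segment 8.71% of the kappa sum in R and 10.5% in C. Of the lambda sum, Iglv1 alone held 59.5% in R and 83.0% in C. Igkv9-124 was at 35.0 FPKM in R, about 360 fragments, and listed at 0 in C, whereas Igkv6-23 was at 15.5 in R and 62.6 in C. Segments are closely related in sequence, so the split between them is uncertain.

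**Figure D3:**
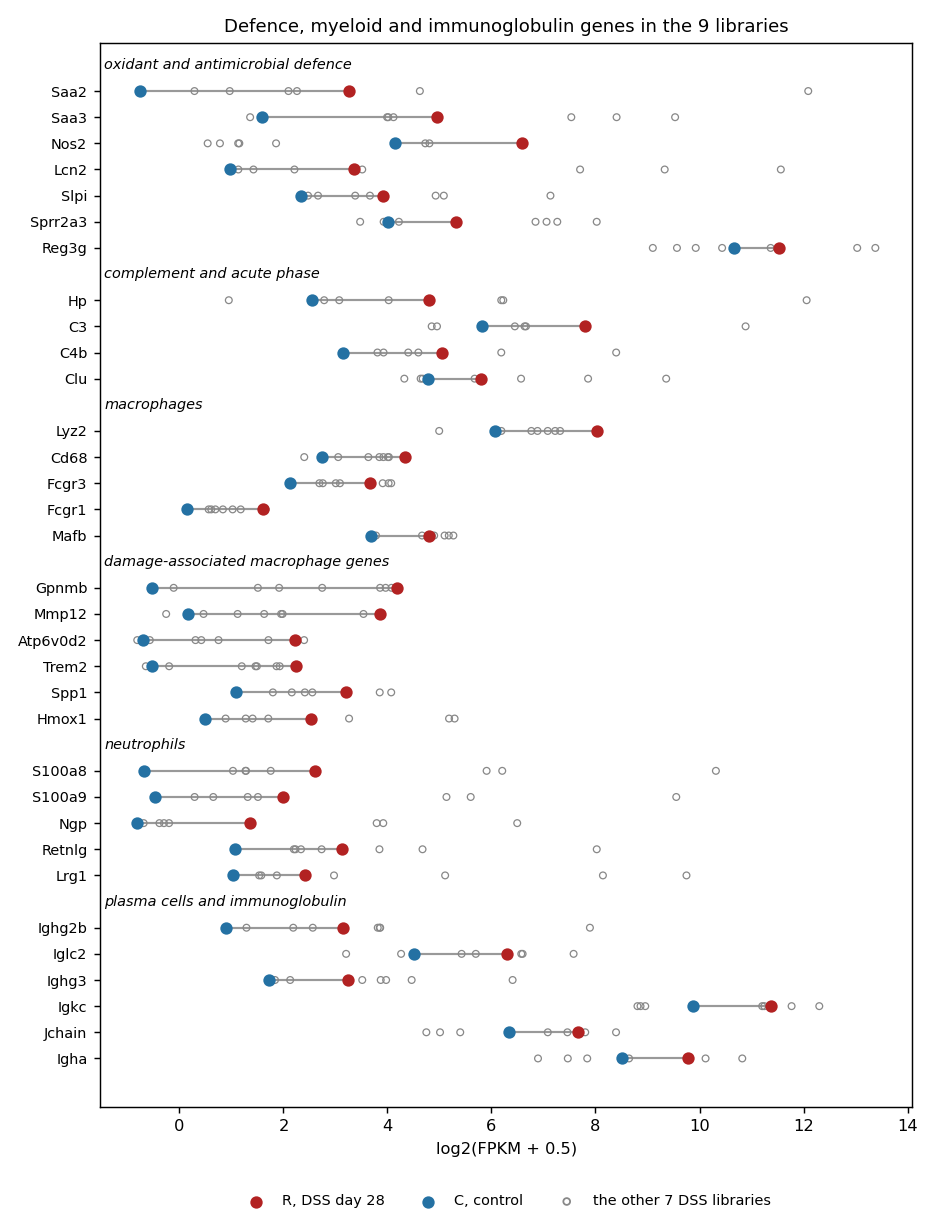
Each row is a gene, with log2(FPKM + 0.5) on the x axis in R (red), C (blue) and the other 7 DSS libraries (open circles); rows are grouped by list and ordered by the difference, showing genes from the upper end of each list. R is the rightmost point for Nos2, Lyz2, Cd68, Gpnmb and Mmp12, whereas for Saa2, Lcn2 and S100a8 other DSS libraries lie far to the right of it.

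Clock genes formed the other group with large differences, and here genes of opposite phase lay on opposite sides. The promoters of 3 of them are shown because they carry copies of the elements through which the clock and its output factors are known to act. Each is the 250 bases before the RefSeq start (GRCm38.p6), 5′ to 3′ on the gene's strand. Capitals mark the E-box CACGTG, bound by BMAL1 and CLOCK, in Ciart (chr3:95882229-95882478, minus strand) and Per1 (chr11:69098699-69098948, plus strand), and the D-box TTATGTAA, bound by the DBP family and NFIL3, in Per3 (chr4:151044666-151044915, minus strand).
Ciart: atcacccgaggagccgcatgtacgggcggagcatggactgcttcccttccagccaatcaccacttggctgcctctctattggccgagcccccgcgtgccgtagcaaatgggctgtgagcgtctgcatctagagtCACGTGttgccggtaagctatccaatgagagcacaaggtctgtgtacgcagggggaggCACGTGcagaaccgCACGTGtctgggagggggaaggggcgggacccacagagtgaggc
Per1: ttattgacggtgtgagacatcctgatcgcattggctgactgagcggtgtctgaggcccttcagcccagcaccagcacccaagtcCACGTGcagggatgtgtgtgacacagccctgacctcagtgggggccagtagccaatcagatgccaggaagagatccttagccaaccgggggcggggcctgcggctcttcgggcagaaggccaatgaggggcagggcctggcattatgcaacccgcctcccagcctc
Per3: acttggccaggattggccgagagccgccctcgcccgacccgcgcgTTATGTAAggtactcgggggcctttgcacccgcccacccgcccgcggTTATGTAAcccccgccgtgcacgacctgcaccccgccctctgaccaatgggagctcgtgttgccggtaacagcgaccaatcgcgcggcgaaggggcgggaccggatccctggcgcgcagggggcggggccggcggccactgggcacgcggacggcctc

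Both strands of the 250-base windows were searched. An E-box was in the window of 4 of 14 clock loop genes and 4 of 17 clock output genes with a promoter in the table, against 9.45% of the genes kept and 6.86% of all 27025 genes in the table. It was in 13.3% of the protein-coding genes at least 2-fold higher (25 of 188) and 6.87% of those at least 2-fold lower (9 of 131). The D-box was in 0.658% of the genes kept, and in the clock loop in Per3 alone of 14. The related form TTACGTAA and the ROR element were in 0 of 14, against 0.171% and 0.577% of the genes kept. The genes with an E-box were Ciart, Per1, Bhlhe41 and Cry1 in the loop and Tef, Tspan4, Lonrf3 and Pdxk among the output genes. Of these, Cry1, Lonrf3 and Pdxk were within 2-fold. The windows of Dbp, Nr1d1, Nr1d2 and Hlf, each past 2-fold higher, held no E-box, nor did that of another Per1 start. An E-box in the window thus did not go with the difference gene by gene. A match describes the letters in the window and does not show a bound site.

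In the positive limb of the loop, Arntl, which encodes BMAL1 (chromosome 7, 113207465 to 113314126, plus strand), stood at 3.53 FPKM in R, 22.96 in C and 1.84 to 11.5 in the other 7 libraries (median 4.59), a difference of -2.54. Npas2, a paralogue of Clock, was at 6.54, 21.9 and 4.33 to 10.2 (median 6.77), a difference of -1.67. Clock itself was at 22.4, 22.5 and 16.6 to 25.3. C was the highest of the 9 libraries for Arntl and Npas2, and R lay among the other DSS libraries.

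In the negative limb, Per3 was at 11.7 FPKM in R, 1.44 in C and 5.89 to 18.7 in the other 7 (median 8.39), a difference of 2.65. Per1 was at 26.9 against 6.95 (1.88) and Per2 at 11.7 against 3.15 (1.74). Nr1d1 and Nr1d2, the REV-ERB repressors of Arntl, were at 90.5 against 14.9 and 39.4 against 6.27, differences of 2.56 and 2.56, with 18.1 to 109.7 and 21.1 to 49.1 in the other 7. Ciart, a repressor of the BMAL1 complex, was at 4.51 against 0.587, and Bhlhe41, another E-box repressor, at 1.60 against 0.197 (1.59). In all 7 of these genes C was the lowest of the 9 libraries. Cry1 and Cry2, the cryptochrome repressors, were at 7.72 against 7.83 and 10.02 against 9.32. Over the loop, 7 of 19 kept genes were past 2-fold higher, 2 past 2-fold lower, and 10 within 2-fold. Ciart and Bhlhe41 were under 1 FPKM in C and were kept only through R, so the floor fixed their direction.

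Among output genes, the related PAR bZIP factors, which bind D-boxes, were all higher in R: Dbp (chromosome 7, 45705088 to 45710203, plus strand) at 46.9 FPKM against 1.81, with 11.3 to 99.0 in the other 7 (median 61.1), Hlf at 6.97 against 0.734, and Tef at 84.4 against 13.7. Their differences were 4.36, 2.60 and 2.58. Nfil3, which competes for the same element, was at 2.31 in R and 9.62 in C (-1.85), with 1.64 to 22.6 in the other 7. The factors that activate through the D-box and the one that represses through it thus stood on opposite sides of the comparison. Usp2, a deubiquitinase, was at 29.1 against 9.50, Noct, nocturnin, at 31.5 against 12.4 and Tspan4, a tetraspanin, at 10.5 against 4.37. Of 21 kept output genes, 6 (28.6%) were past 2-fold higher and 1 (4.76%) past 2-fold lower (median 0.42), against 4.43% and 3.22% of all genes kept. Of the 6, Hlf was under 1 FPKM in C and was kept only through R, so the floor fixed its direction. The hour of collection is not stated for either library.

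**Figure D4:**
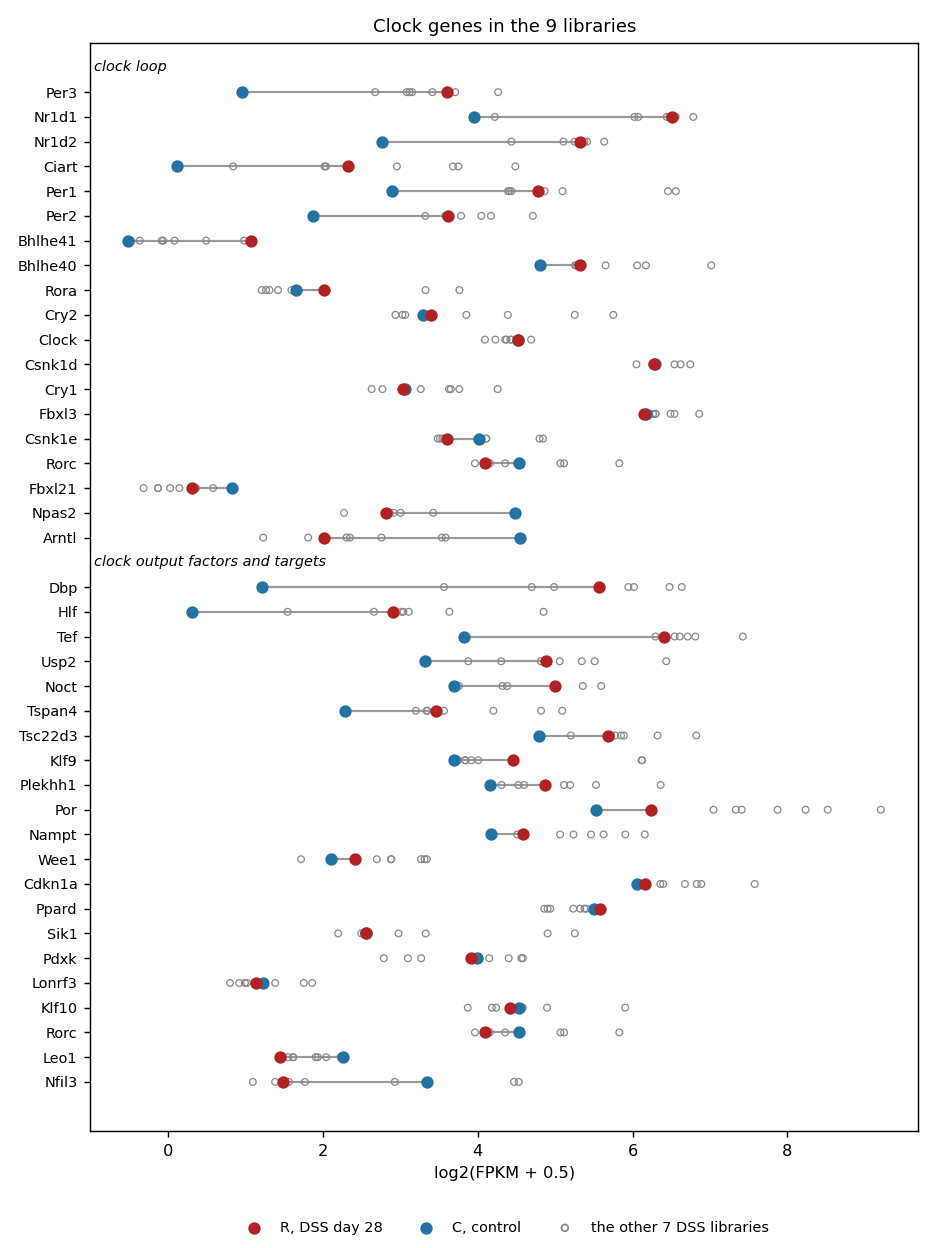
Each row is a kept gene of the clock loop or of its output list, ordered by the difference, with log2(FPKM + 0.5) on the x axis in R (red), C (blue) and the other 7 DSS libraries (open circles). C is the leftmost point for Per3, Nr1d1, Nr1d2, Dbp, Hlf and Tef and the rightmost for Arntl and Npas2, while Clock, Cry1 and Cry2 differ little between R and C.

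Glucocorticoid-responsive genes were higher in R in 20 of 24 kept members, 8 of them past 2-fold, and 0 were lower past 2-fold. The median was 0.80. Fkbp5 (chromosome 17, 28399094 to 28517527, minus strand) stood at 29.9 FPKM in R, 4.24 in C and 7.36 to 240.2 in the other 7 (median 55.6), a difference of 2.68. Zbtb16, a zinc finger factor, was at 7.18, 1.93 and 2.05 to 40.7 (median 4.47), a difference of 1.66. C was the lowest library for both. Sgk1, a kinase that promotes epithelial sodium uptake, was at 415 against 148, and Cebpd, a transcription factor of the acute phase response, at 7.47 against 2.43. Tsc22d3, which encodes GILZ, was at 50.7 against 27.2, under 2-fold. Pfkfb3 was at 55.1 in R, 6.97 in C and 16.4 to 116 elsewhere (2.89), and was the only 1 of 29 glycolysis and hypoxia genes past 2-fold higher, with Ankrd37, an ankyrin repeat protein, the only 1 past 2-fold lower (2.71 against 8.21).

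Of 21 heat shock genes, 19 were above 0 and 3 past 2-fold higher (median 0.47). Hspa1b and Hspa1a, near-identical inducible HSP70 genes whose reads cannot be fully separated, were at 6.42 against 0.848 and 3.25 against 0.479, and Hsph1, a co-chaperone of HSP70, at 32.6 against 10.7. Hspa1b and Hspa1a were under 1 FPKM in C and were kept only through R, so the floor fixed their direction. In the endoplasmic reticulum stress list 22 of 26 were above 0 and 1 past 2-fold, Herpud1, a part of the degradation machinery, at 158 against 45.8, with Hspa5, the chaperone BiP, at 224 against 122. Immediate early genes, which respond quickly to stimuli, had 0 of 25 past 2-fold, with Fos at 67.0 against 34.8 and Atf3 at 6.92 against 12.8.

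Genes of the crypt and of secretory cells differed little. Among stem cell and Wnt target genes 0 of 20 were past 2-fold and 14 were below 0 (median -0.20), with Lgr5, a receptor of crypt base stem cells, at 6.28 FPKM in R, 8.62 in C and 0.492 to 4.56 in the other 7. Olfm4, a secreted crypt base protein, was at 214, 313 and 0.916 to 274. For Lgr5, both R and C were above each of the other DSS libraries. Cell cycle genes had 0 of 40 past 2-fold and a median of -0.03. Goblet cell genes had 0 of 21, with Muc2, the gel-forming mucin, at 7863 against 10886, and hormone genes 0 of 20, with Gcg, proglucagon, at 36.7 against 51.4 and Pyy, peptide YY, at 34.5 against 50.8. Of 20 Paneth cell genes, 1 was past 2-fold, the alpha-defensin Defa3 (2.89 against 8.78). Defa31, a close relative, was at 6.13 against 24.6 (-1.92), though other abundant members such as Defa30 were at 649 against 804, and reads of this family are hard to assign.

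Barrier and repair genes lay on both sides. Of 23 junction genes, 2 (8.70%) were past 2-fold lower, against 3.22% of all genes kept, and 0 past 2-fold higher. These were Cldn8, a sealing claudin of the distal gut, at 0.660 against 3.68, and Cldn4, at 28.0 against 62.0. Cldn8 was under 1 FPKM in R and was kept only through C, so the floor fixed its direction. Ocln, occludin, was at 55.6 against 92.8. Lama3, a laminin chain of the epithelial basement membrane (chromosome 18, 12333819 to 12583013, plus strand), stood at 6.83 in R, 23.5 in C and 1.68 to 7.17 in the other 7, so C was the highest library. Of 27 regenerative and fetal-like epithelial genes, 4 were higher, Spp1, Il33, Anxa8 and Clu, and 1 was lower, Sprr1a, a cornified envelope precursor, at 1.99 against 7.53. Spp1 and Il33 also stand on other lists. Collagens and other matrix genes had 0 of 32 past 2-fold, while 4 of 19 matrix proteases and inhibitors were past 2-fold higher (2 at a pseudocount of 1, and 3 of the 4 kept only through R), among them Mmp12, Timp1 (2.61 against 0.492) and Mmp11 (4.91 against 2.195).

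Several genes of nutrient and ion transport were higher in R. In the sugar list 5 of 19 were past 2-fold higher and 1 past 2-fold lower (median 0.34). Slc5a1, the sodium-glucose cotransporter SGLT1 (chromosome 5, 33104219 to 33162870, plus strand), stood at 432 FPKM in R, 116 in C and 151 to 1526 in the other 7 (median 594), a difference of 1.89. Slc2a2, the basolateral glucose carrier GLUT2, was at 32.9, 6.17 and 12.5 to 357 (median 104), a difference of 2.32, and Slc2a5, the fructose carrier GLUT5, at 45.2, 13.5 and 25.1 to 236 (median 97.2), a difference of 1.71. C was the lowest library for all 3 and R was above 3 of the other 7 for Slc5a1, 2 for Slc2a2 and 1 for Slc2a5. Mgam, the disaccharidase maltase-glucoamylase, was at 890.3 against 434, whereas G6pc, the glucose 6-phosphatase catalytic subunit, was lower, at 5.76 against 16.02. Slc36a1, a proton-coupled amino acid transporter, was at 41.7 against 11.1, and 23 of 27 amino acid and peptide uptake genes were above 0, with 2 past 2-fold higher and 1 past 2-fold lower. These are 7.41% and 3.70%, against 4.43% and 3.22% of all genes kept and 1.87% and 1.46% of the protein-coding genes kept. Of 28 lipid absorption genes, 2 (7.14%) were past 2-fold higher and 0 past 2-fold lower (median 0.10).

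Of 32 ion and water transport genes, 6 were past 2-fold higher and 0 past 2-fold lower (median 0.23). Among them, Atp1b1, the beta subunit of the sodium pump, was at 910.4 against 424, and Slc9a3, the apical sodium-proton exchanger NHE3, at 38.6 against 16.8. Car4, a membrane carbonic anhydrase, was at 96.1 against 32.0, and Slc26a2, a sulfate transporter, at 140.3 against 63.8. Over all 266 solute carrier genes kept, a family chosen after its values were seen, 16 were past 2-fold higher and 5 past 2-fold lower. Of the 266, 163 were above 0, and the median was 0.11. The shares over all genes kept were 4.43% and 3.22%, and over protein-coding genes 1.87% and 1.46%. Among the solute carriers, Slc13a2, a sodium-citrate cotransporter, was at 134 against 37.6 and Slc5a12, a sodium-lactate cotransporter, at 97.8 against 29.6. Slc34a2, a sodium-phosphate cotransporter, was lower in R at 158 against 357. For Slc34a2 both R and C were above the other 7 libraries, which ran from 0.337 to 65.5.

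Of 12 kept genes of bile acid handling, 2 were past 2-fold lower in R and 2 past 2-fold higher. Fgf15, the hormone that the ileum releases in response to bile acids (chromosome 7, 144896531 to 144900953, plus strand), stood at 34.5 FPKM in R, 90.4 in C and 0.147 to 8.25 in the other 7 (median 1.79), a difference of -1.38. Nr0b2, the repressor SHP, which like Fgf15 is a target of the bile acid receptor FXR, was at 2.11 against 7.12 (-1.55), and Fabp6 was lower by less than 2-fold (-0.84). The apical importer Slc10a2 was at 51.0 against 43.1, the receptor gene Nr1h4 at 36.5 against 34.4, and the exporter Abcc2 at 91.1 against 39.0. The basolateral exporter genes Slc51a and Slc51b, also FXR targets, were at 354 against 294 and 69.3 against 89.7, so the FXR targets did not all lie on one side.

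All 34 genes of cholesterol and fatty acid synthesis were lower in R, 6 of them past 2-fold, and the median was -0.43 against 0.01 for all genes kept. The promoters of an enzyme from each arm are shown because the CCAAT box, which the factor NF-Y binds, was in the window of 21 of the 24 list genes with a promoter in the table (87.5%), against 40.0% of the genes kept and 37.5% of all genes in the table. The sterol regulatory element, searched as a single exact sequence, was in 0 of these 24 and in 0.0541% of the genes kept. Capitals mark CCAAT or its reverse complement ATTGG, in Fasn (chr11:120824548-120824797, minus strand), where a pair of them overlaps, and Hmgcs1 (chr13:119690101-119690350, plus strand), 250 bases before the RefSeq start in GRCm38.p6.
Fasn: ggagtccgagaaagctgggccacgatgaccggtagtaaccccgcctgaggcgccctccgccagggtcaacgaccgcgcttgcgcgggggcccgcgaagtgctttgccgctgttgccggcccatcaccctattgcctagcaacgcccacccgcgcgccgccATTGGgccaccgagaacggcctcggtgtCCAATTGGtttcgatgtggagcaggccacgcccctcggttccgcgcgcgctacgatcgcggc
Hmgcs1: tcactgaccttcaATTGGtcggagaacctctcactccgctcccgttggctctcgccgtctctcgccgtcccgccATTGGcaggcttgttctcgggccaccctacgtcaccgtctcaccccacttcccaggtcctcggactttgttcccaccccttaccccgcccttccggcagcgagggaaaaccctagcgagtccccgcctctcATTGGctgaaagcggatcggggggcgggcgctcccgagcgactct

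In the fatty acid arm, Scd1, which desaturates fatty acids, was at 146 FPKM in R, 389 in C and 10.9 to 348 in the other 7 (median 117), a difference of -1.41. Fasn, fatty acid synthase, was at 58.5, 133 and 19.1 to 61.6 (median 42.7), a difference of -1.18. C was the highest library for both genes. Thrsp, an inducer of lipogenesis, was at 14.01 against 38.6, Scd2 at 24.99 against 55.5, and Pnpla3, a lipid droplet lipase whose gene responds to the same lipogenic factors, at 1.099 against 9.52 (-2.65). In the sterol arm the differences were smaller: Insig1, a sterol sensor, was at 10.4 against 23.2 (-1.12), Pmvk, phosphomevalonate kinase, at 6.30 against 13.1 and Hmgcs1, an early enzyme of the mevalonate pathway, at 63.2 against 92.5 (-0.54). Abca1, which exports cholesterol from cells, was at 32.4 against 10.5, higher in R (1.58). For Insig1 the other 7 libraries ran from 14.9 to 32.6, so R was the lowest of the 9.

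**Figure D5:**
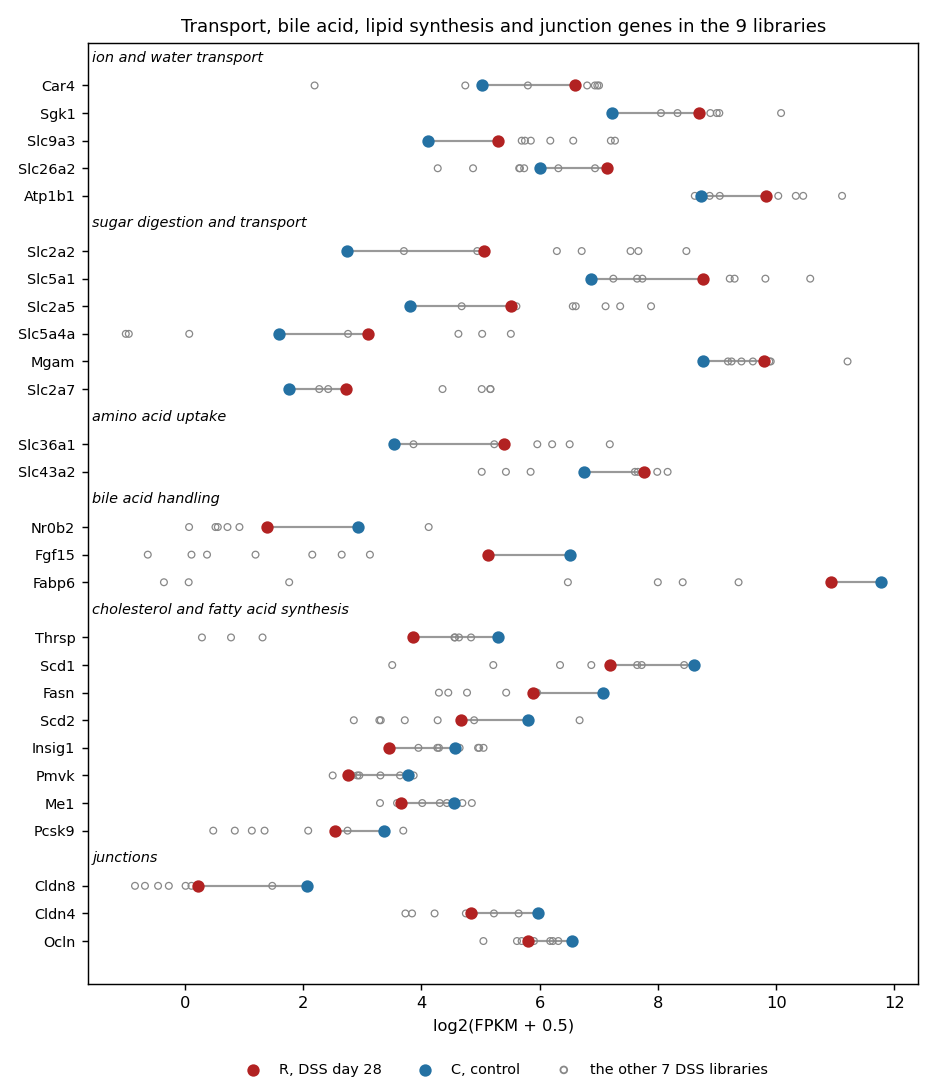
Each row is a gene, with log2(FPKM + 0.5) on the x axis in R (red), C (blue) and the other 7 DSS libraries (open circles), showing genes from the upper end of the uptake lists and from the lower end of the bile acid, lipid synthesis and junction lists. C lies to the left of R for each uptake gene plotted and to the right for each bile acid, lipid synthesis and junction gene plotted.

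Transcripts typical of adipose tissue and liver were lower in R. Of 16 adipocyte genes 3 were past 2-fold lower (median -0.52), with Fabp4, a fatty acid binding protein of fat cells, at 32.6 against 93.0, and Adipoq, adiponectin, at 20.7 against 35.4. The whole list made up 0.104% of the summed FPKM in R and 0.144% in C. Scd1, Fasn and Thrsp are also expressed in fat, and the part of adipose tissue in their values was not tested. Of 16 liver genes 5 were past 2-fold lower and 2 past 2-fold higher (median -0.57). Apoa2, an apolipoprotein, was at 1.89 against 20.3, Ttr, transthyretin, at 4.18 against 14.7 and Mug1, a protease inhibitor of plasma, at 0.830 against 5.53, while Hpx, haemopexin, was at 19.4 against 5.02 and Fga, a fibrinogen chain, at 13.4 against 5.51. The genes past 2-fold higher, Hpx and Fga, are acute phase genes. Alb was at 85.3 against 167, and in library 2K these liver transcripts reached 15459 FPKM for Alb.

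Enteric neuron and glia genes were below 0 in 13 of 15 kept members without any (0) past 2-fold (median -0.37), with Vip, a neuropeptide, at 3.84 against 6.83. Smooth muscle genes had 0 of 20 past 2-fold, and housekeeping genes 0 of 16. Of 41 genes of xenobiotic metabolism 1 was higher, Cyp2b10, a cytochrome P450 of drug oxidation, at 20.4 against 7.09, and 3 were lower, among them Cyp2c29 at 0.240 against 3.34 and Cyp2c55 at 2.89 against 9.71. The remaining genes with large negative differences were Apol9b, an apolipoprotein L (1.95 against 9.07), Pin4, a prolyl isomerase (1.32 against 6.13), S100g, a calcium-binding protein of enterocytes (2.62 against 10.7), Hamp, hepcidin, the iron hormone (1.22 against 5.14), and Tppp, a tubulin-binding protein (5.32 against 18.4).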

How the data were processed

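Per the labels, RNA from mouse intestinal tract was depleted of ribosomal RNA and sequenced as stranded libraries without poly(A) selection, so small and unpolyadenylated RNAs are measured too. The submitters' processing notes name HISAT2, Cuffdiff 2.2.1 and the build GRCm38; the annotation the authors counted on is not stated in the labels used. The values are FPKM as deposited by the authors, per the file headers, and carry no counts. Cuffdiff's scaling was kept.

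Depth was estimated from the step between small FPKM values of single-transcript genes (92.7% of 809 low values in R lay within 0.15 of a whole fragment), so no counting interval is given. Differences were taken on log2(FPKM + 0.5) over genes with at least 1 FPKM in R or C, and counted at 2-fold. Gene types and coordinates came from GENCODE M21, which held 55227 of the genes, and promoters from the RefSeq table of GRCm38.p6, which held 11091 of the genes kept. Python 3.11.15, numpy 2.4.6 and pandas 2.3.3 were used, and the counting and the depth step were checked on simulated data.

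Named genes were the 15 highest and 15 lowest with at least 5 FPKM on either side, leaving out predicted genes, pseudogenes, small RNAs, mitochondrial genes, histones and receptor segments, up to 8 members of each of 66 lists with the largest difference, all members of 4 lists, and 5 receptor segments each way. Genes named outside the rule were chosen after their values were seen. The members and lists were chosen with earlier results of these data known. Alternative settings were pseudocounts of 1 and 0.1, floors of 0 and 5 FPKM, and scaling by median of ratios (7809 genes) or to the protein-coding sum. Some list members are counted but not reported here by name.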

Additional observations from a re-analysis of the deposited data

How the results depend on the processing

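With a floor of 5 FPKM in place of 1, 450 genes were past 2-fold higher and 258 past 2-fold lower, because fewer genes entered. Under the other 5 alternatives the counts ran from 647 to 1008 higher and from 460 to 786 lower, and the share higher among the genes counted from 55.0% to 58.4%, against 58.0% as reported and 63.6% with the floor of 5 FPKM. The median of all genes was -0.03 under protein-coding scaling and 0.01 as reported. Of the list medians, those of 6 lists near 0 changed sign under 1 or more alternatives, among them the interferon list (-0.01 under protein-coding scaling, -0.20 with a floor of 5 FPKM) and the clock loop (-0.01 with that floor). Of the 545 named genes, 2 that lay near 0, Zg16 and Sik1, changed sign under a scaling alternative. No paired analysis was possible because each condition has 1 library, and for the same reason no replicate could be left out. FPKM without counts limits genes under about 1 FPKM.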

Other observations

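The following genes were singled out after their values were seen. The predicted gene Gm10800 (chromosome 2, 98666547 to 98667301, GRCm38) was at 2.25 FPKM in R and 3517 in C. Together with Gm10801 next to it, Gm21738 on chromosome 14 and 5 predicted genes near the start of chromosome 9, its summed FPKM was 4.96 in R and 5001 in C. The same sum was 2295 in 3KR, 488 in RR and between 2.40 and 20.1 in 1K, 2K, 3K, 1KR and 2KR. The 3 high sums came from libraries of day 33 or 34, with and without DSS, and 2 day 33 libraries were low. C also listed 14974 genes above 0 and below 1 FPKM, against 12154 in R and 11401 to 12634 in the other 7 libraries. The miRNA-type gene Gm26377 on chromosome 9 was at 957 in R and listed at 0 in C.

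Homeobox genes of the HoxB cluster, which mark position along the gut, were lower in R: Hoxb9 was at 0.856 FPKM against 4.48, Hoxb6 at 2.13 against 7.07, Hoxb5 at 1.71 against 4.55 and Hoxb3 at 1.92 against 5.11. Of 16 Hox genes kept, 14 were below 0, 5 at least 2-fold lower and 0 higher, with a median of -0.36. Over all genes kept, 3.22% were at least 2-fold lower. Hoxb9 and Hoxb8 (0.650 against 1.90) were under 1 FPKM in R and were kept only through C, so the floor fixed their direction. Hoxa5 was at 1.43 against 1.44 and Hoxc8 at 5.59 against 6.35. The labels do not state which gut segment each library came from.

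Of all 245 snoRNAs kept, 52 (21.2%) were past 2-fold higher in R and 86 (35.1%) past 2-fold lower (median -0.23). The shares were 26.4% and 29.7% over all small RNAs kept, and 4.43% and 3.22% over all genes kept. Of the 52, 37 were listed at 0 in C, and of the 86, 61 were listed at 0 in R. The floor fixed the direction of these, so the counts describe these snoRNAs only. Of the 39 among the genes kept with Snord or Snora names, 4 were past 2-fold higher and 16 past 2-fold lower (median -0.76). Snord17 was at 864 FPKM in R and 2393 in C, with 657 to 13122 in the other 7 libraries. Cytosolic ribosomal protein genes had 0 of 78 past 2-fold and a median of -0.08.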
